A study of Mus musculus with 9 samples.

Results

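The 33 genes described here encode the proteins of blood coagulation and of fibrin removal. They were chosen by their mouse gene symbols, and all 33 were found among the 17846 genes listed for each mouse by Entrez Gene identifier. Liver RNA came from 9 wild-type male mice of the strain given as C57/BL, with 1 mRNA library for each mouse and 3 mice in each of 3 groups, out of 8 kept in each group of the study. Control mice ate normal chow and stayed sedentary. NASH mice ate the Ath diet, which carries added cholesterol and cholate, for 20 weeks and stayed sedentary. NASH+Exercise mice (labelled EXE+Ath diet) ate the Ath diet for 12 weeks and then ran on a treadmill for 8 weeks while on the diet, with training from 20 weeks of age. No genetic change was made in any group, and all the mice were fasted overnight before the livers were taken. The Ath diet is a dietary model of nonalcoholic steatohepatitis (NASH), and no trained mice on chow were sequenced, so an effect of training without the diet is not part of these data.

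Coagulation is a chain of proteases that circulate as inactive zymogens and end in thrombin, which cuts fibrinogen into fibrin. Hepatocytes make most of these proteins and most of their plasma inhibitors. Endothelial cells, macrophages and other cells make tissue factor, the receptors on the vessel wall, the activators of plasminogen and the catalytic subunit of factor XIII. Plasminogen, itself made in the liver, is turned into plasmin by its activators and dissolves the clot. By this textbook division, 23 of the 33 genes were taken as hepatocyte-made and 10 as made mainly by other cells.

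Each library held between 20085976 and 22495408 estimated counts, and 13619 genes had enough counts to be tested, including all 33 members. Levels are given as CPM (counts scaled to the library total) after TMM scaling, which sets libraries to a common scale by a trimmed mean over genes, and the TMM factors were 0.80 to 0.976 in the Control mice, 1.09 to 1.23 in the NASH mice and 0.912 to 1.08 in the NASH+Exercise mice. A log2 fold change (log2FC) comes from edgeR's quasi-likelihood fit of all 9 mice, with a p adjusted over the 13619 genes. Its standard error (SE) was worked out as the absolute log2FC over the square root of the F statistic of that test. A gene is said to have risen or fallen at an adjusted p under 0.05. Where values of single mice are given, the order is replicates 3, 4 and 29 of Control, 5, 19 and 20 of NASH, and 8, 18 and 22 of NASH+Exercise. The 8 hepatocyte markers were present in every group and their summed TPM (transcripts in proportion to the library) were 96350 to 105877 in the Control mice, 84894 to 106515 in the NASH mice and 71385 to 95221 in the NASH+Exercise mice. By edgeR, 4 of these 8 markers fell in NASH and 2 in NASH+Exercise against Control.

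The members spanned a very wide range of levels. On the TPM scale, which corrects for transcript length, the 3 fibrinogen chains had the highest levels, with group means from 2848 to 6050 TPM, ahead of Kng1, Serpinc1, Plg and F2, with group means from 1265 to 2489.8 TPM. All 23 hepatocyte-made genes ranked above all 10 genes of other cells, of which Procr, the endothelial protein C receptor, had the highest mean and F13a1 the lowest. The 10 genes of other cells summed to 7.40 to 14.6 TPM in the Control mice, 33.6 to 40.3 TPM in the NASH mice and 15.7 to 27.9 TPM in the NASH+Exercise mice. The hepatocyte-made genes summed to 18368 to 21757 TPM in the Control mice, 26335 to 30024 TPM in the NASH mice and 23034 to 32954 TPM in the NASH+Exercise mice.

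**Figure D1:**
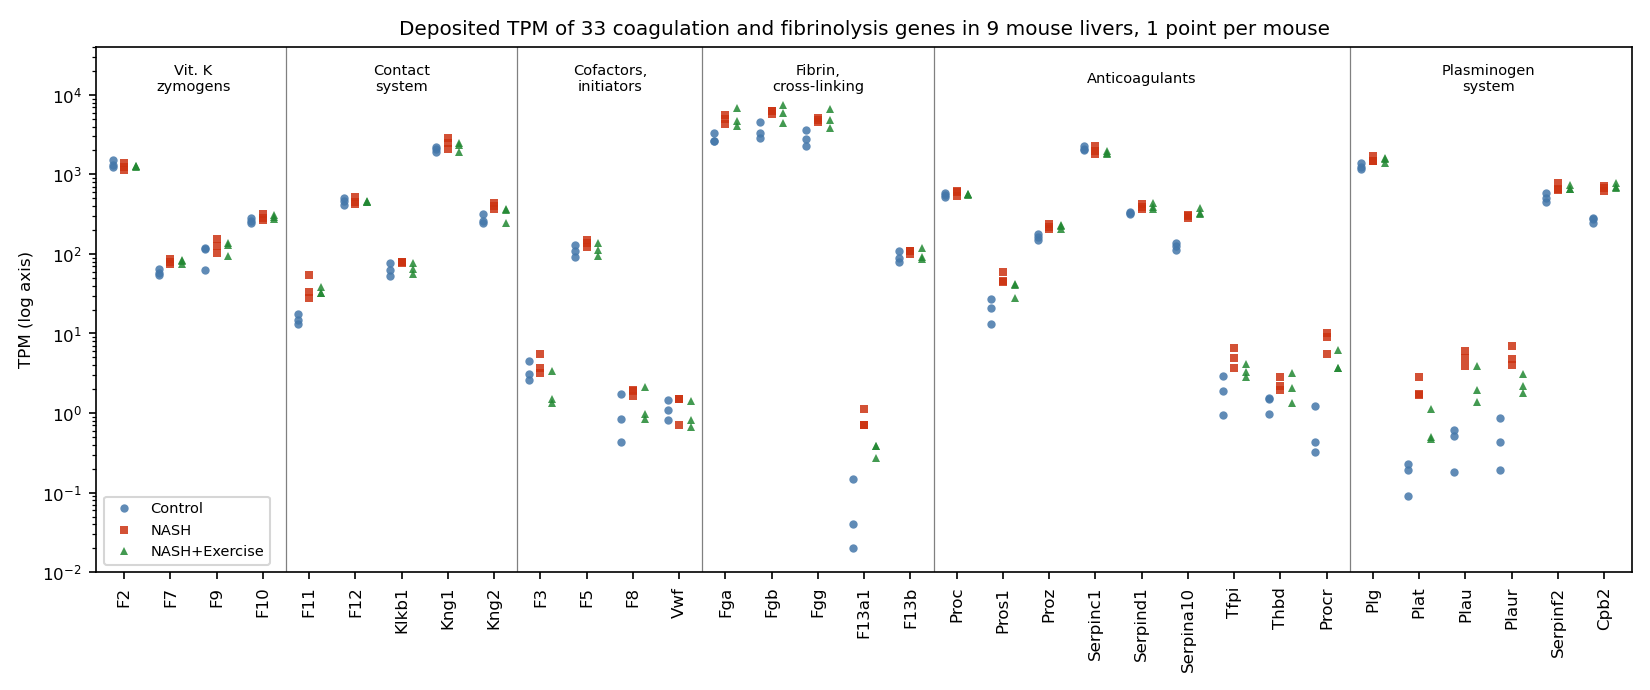
TPM of each of the 33 genes in each of the 9 mice, on a log axis, with genes ordered by role and 1 point per mouse (circles Control, squares NASH, triangles NASH+Exercise). Fgb, Fga and Fgg lie at the top and F13a1 at the bottom, and the groups stand furthest apart in F13a1, Procr, Plat, Plau and Plaur.

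In NASH mice, 10 of the 33 genes rose against Control and 0 fell, where 35.6% of all genes tested were called, 21.2% higher and 14.4% lower. Procr, F13a1, Plat, Plau and Plaur rose by 7.82 to 9.86 fold, and Tfpi, Cpb2, F11, Pros1 and Serpina10 rose by 1.76 to 1.91 fold. With the threshold of the study, which also asks for an absolute log2FC above 1, the first 5 were called, against 18.3% of all genes. By source, 6 of the 10 genes of other cells rose, with a median log2FC of 1.95, and 4 of the 23 hepatocyte-made genes rose, with a median of -0.053. The median over all genes tested was 0.013. The filter on low counts asks for about 10 counts in at least 3 mice. F13a1 and Plat had fewer than 10 counts in every Control mouse, and Procr, Plau and Plaur reached 10 in fewer than 3 of them. These 5 genes passed the filter only through the groups where they were high, and all 5 were also called with no filter. In whole liver RNA, more cells of a type and more RNA per cell cannot be told apart. The 3 NASH mice lay wholly above the 3 Control mice in CPM for 14 members and wholly below them for 5 (F2, F12, F13b, Proc and Serpinc1, none of which lay wholly below in TPM), and of all genes 27.4% lay above and 22.2% below. In DESeq2, 10 members rose and Serpinc1 and F2 were called lower, where 37.6% of all genes were called, 20.7% higher and 16.9% lower.

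In NASH+Exercise mice, 12 of the 33 genes rose against the same Control mice and 0 fell, where 25.1% of all genes were called, 15.6% higher and 9.58% lower. They were 9 of the 10 above, without Tfpi, plus Fga, Fgb and Fgg. In CPM, 12 members lay wholly above the Control mice and 1, F3, wholly below, and of all genes 21.5% lay above and 17% below. With an absolute log2FC above 1, 8 genes were called, against 13.5% of all genes. Among the genes of other cells 5 of 10 rose, with a median log2FC of 1.24, and among the hepatocyte-made genes 7 of 23 rose, with a median of 0.14. Between NASH+Exercise and NASH, 0 of the 33 genes were called by edgeR, where 0.162% of all genes were.

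**Figure D2:**
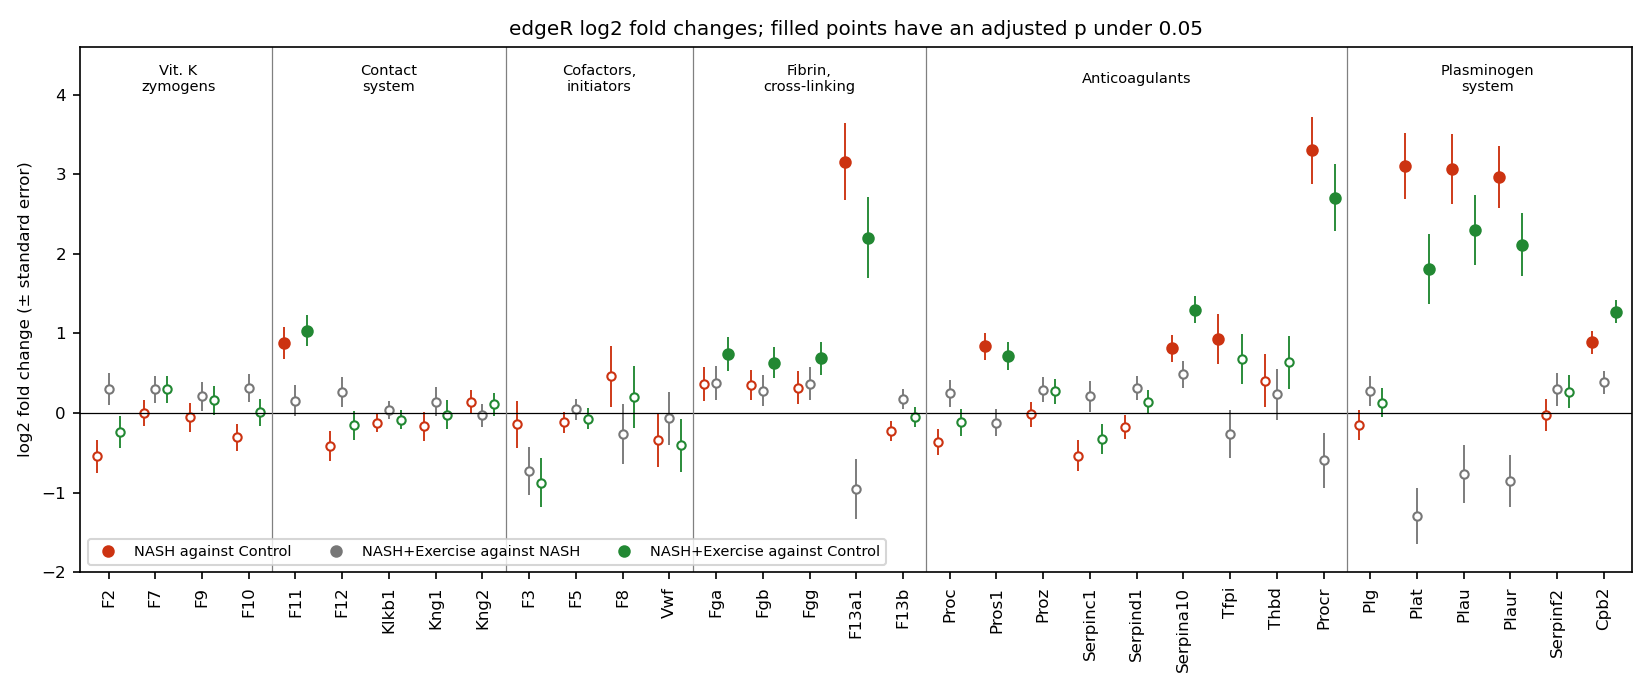
Log2 fold change of each gene from edgeR with its standard error, for NASH against Control (red), NASH+Exercise against NASH (grey) and NASH+Exercise against Control (green), in which filled points have an adjusted p under 0.05. The 5 highest red points are Procr, F13a1, Plat, Plau and Plaur, at 2.97 to 3.30, no grey point is filled, and the fibrinogen chains are filled in green only.

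The vitamin K-dependent zymogens F2 (prothrombin), F7, F9 and F10 are the proteases of the common and extrinsic pathways together with factor IX. None of the 4 was called in any comparison by edgeR with TMM. F2 had 1702, 2420.0 and 1563 CPM in the Control mice, 1461, 1082 and 1348 in the NASH mice and 1388, 1626 and 1793 in the NASH+Exercise mice. The 3 NASH values lay below the 3 Control values, and the log2FC was -0.55 (SE 0.20, adjusted p = 0.0575), just outside the threshold. F2 was called lower by DESeq2 and without Control replicate 29, with adjusted p from 0.0194 to 0.456 over the 16 alternatives. F10 had a log2FC of -0.31 (SE 0.17, adjusted p = 0.195) in NASH, and F7 and F9 had 0.00042 and -0.053. With library size alone and on the TPM scale, F9 and F10 were higher in NASH without a call and F7 rose. In NASH+Exercise against Control, F7 had a log2FC of 0.30 (SE 0.17, adjusted p = 0.237). It was called higher there in 4 of 16 alternatives, namely library size alone, limma on TPM with either pseudocount, and without Control replicate 4. F9 was at 63.4 TPM in Control replicate 4 and at 115 and 118 TPM in the other Control mice.

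The contact system starts coagulation from negatively charged surfaces. F11 encodes factor XI, F12 factor XII, Klkb1 prekallikrein, and Kng1 and Kng2 the kininogens that carry prekallikrein and factor XI in plasma. F11 rose and the other 4 were not called. F11 (Entrez Gene 109821, chr8:45240659-45262055) had 20.8, 27.8 and 25.2 CPM in the Control mice, 33.5, 60.2 and 41.9 in the NASH mice and 50.2, 47.6 and 53.3 in the NASH+Exercise mice. No mouse on the Ath diet was at or below a Control mouse. The log2FC was 0.88 (SE 0.20, adjusted p = 0.006) in NASH and 1.04 (SE 0.20, adjusted p = 0.0034) in NASH+Exercise, and both calls held in each of 16 alternatives. Klkb1 (Entrez Gene 16621, chr8:45266688-45294835), the gene next to F11, had 219, 217 and 243 CPM in the Control mice, 210.1, 192 and 222 in the NASH mice and 221, 215 and 205 in the NASH+Exercise mice, with overlapping groups and a log2FC of -0.12 (SE 0.12, adjusted p = 0.445) in NASH. The gap between these 2 genes on chromosome 8 is 4.63 kb. F12 had a log2FC of -0.42 (SE 0.19, adjusted p = 0.107) in NASH, with the NASH mice below the Control mice in CPM but a log2FC of 0.029 on the TPM scale, and -0.16 (SE 0.19, adjusted p = 0.597) in NASH+Exercise. Kng1 and Kng2 had -0.17 and 0.14 in NASH. These 2 genes are close copies, with 93.8% of 2197 aligned transcript bases identical, so reads could be shared out between them and their separate values are uncertain.

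The sequence before the start sites of F11 and Klkb1 is shown because these neighbours had different log2FC against the same Control mice. Each line holds the 250 bases before the RefSeq start site, 5′ to 3′ on the gene's strand in GRCm38.p6, and both genes lie on the minus strand. Capitals mark matches, on either strand, to CTGGGA (the core of the IL-6 response element), GTTAAT (part of the HNF1 site), TTGCNNAA (C/EBP), TTCNNNGAA (STAT) or TATAAA (the site of the TATA-binding protein), and no match overlapped another. The F11 window is chr8:45262032-45262281 and the Klkb1 window is chr8:45294836-45295085.
F11: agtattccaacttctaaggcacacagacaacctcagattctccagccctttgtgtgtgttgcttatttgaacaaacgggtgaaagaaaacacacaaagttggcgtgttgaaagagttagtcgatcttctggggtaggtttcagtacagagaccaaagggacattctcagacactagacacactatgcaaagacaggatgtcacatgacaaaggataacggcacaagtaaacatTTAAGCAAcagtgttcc
Klkb1: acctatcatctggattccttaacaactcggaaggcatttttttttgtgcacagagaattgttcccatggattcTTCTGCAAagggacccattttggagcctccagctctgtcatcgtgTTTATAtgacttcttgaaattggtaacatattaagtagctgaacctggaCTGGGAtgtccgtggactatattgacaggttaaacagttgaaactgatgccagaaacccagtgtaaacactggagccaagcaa
The F11 window held 1 match, to the C/EBP letters, from -17 to -10. This match lies inside the annotated F11 gene, whose upstream end is farther out than the RefSeq start site used for the window. The Klkb1 window held matches to CTGGGA from -83 to -78, to the C/EBP letters from -177 to -170 and to TATAAA from -132 to -127. Over the 27025 promoters of this length, 26.8% held CTGGGA, 9.55% the C/EBP letters, 7.18% the STAT letters, 6.52% the HNF1 letters and 13% TATAAA, so these letters are common and a match does not show that a factor binds.

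Tissue factor (F3) starts the extrinsic pathway, factors V (F5) and VIII (F8) are the cofactors of the proteases, and von Willebrand factor (Vwf) carries factor VIII. None of the 4 was called in any comparison by edgeR on all 9 mice. F3 had 3.86, 3.84 and 5.0 CPM in the Control mice, 3.03, 4.85 and 3.61 in the NASH mice and 3.45, 1.75 and 1.71 in the NASH+Exercise mice, from 35 to 125 counts. NASH and Control overlapped, with a log2FC of -0.14 (SE 0.30, adjusted p = 0.749). NASH+Exercise replicates 18 and 22 were lowest of all 9 mice and replicate 8 was near the NASH mice, and the log2FC against Control was -0.87 (SE 0.31, adjusted p = 0.0611). F3 was called lower against Control without replicate 8, with a log2FC of -1.29 and an adjusted p of 0.0113, and by DESeq2. F5, the hepatocyte-made member of this group, had 547, 539.6 and 576 CPM in the Control mice, 578, 475 and 480.4 in the NASH mice and 560.2, 536 and 488 in the NASH+Exercise mice and a log2FC of -0.12 (SE 0.13, adjusted p = 0.537) in NASH. F8 had 5.42, 3.11 and 9.95 CPM in the Control mice, 8.64, 8.69 and 8.16 in the NASH mice and 10.4, 5.71 and 5.07 in the NASH+Exercise mice, where the Control mice ranged more widely than the NASH mice. Its log2FC in NASH was 0.46 (SE 0.38, adjusted p = 0.39), and without Control replicate 29, the highest Control mouse, it was 0.96 with an adjusted p of 0.0447. Vwf had a log2FC of -0.34 (SE 0.33, adjusted p = 0.461) in NASH and -0.41 (SE 0.33, adjusted p = 0.422) in NASH+Exercise.

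Fibrinogen is made of 3 chains from the neighbouring genes Fga, Fgb and Fgg, and factor XIII, made of the subunits F13a1 and F13b, links the fibrin strands. Fga (Entrez Gene 14161, chr3:83026153-83033627) had 5438, 6268 and 6033 CPM in the Control mice, 8592, 7113 and 7150.0 in the NASH mice and 7966, 13269.7 and 8484 in the NASH+Exercise mice. Fgb (Entrez Gene 110135, chr3:83042246-83049863) had 3759, 3805 and 4543 CPM in the Control mice, 5427, 4902 and 5135 in the NASH mice and 5559.5, 7973 and 5234 in the NASH+Exercise mice. Fgg (Entrez Gene 99571, chr3:83007724-83015056) had 3211, 3111 and 3724 CPM in the Control mice, 4497, 3850.5 and 4176 in the NASH mice and 4532, 7138 and 4479.9 in the NASH+Exercise mice. In each chain all 6 mice on the Ath diet were above the 3 Control mice in CPM, and NASH+Exercise replicate 18 was the highest mouse. In TPM these groups overlapped for Fgb, at 4486.15 in NASH+Exercise replicate 22 and 4499.84 in Control replicate 29. In NASH the log2FC was 0.37 (SE 0.21, adjusted p = 0.213) for Fga, 0.35 (SE 0.19, adjusted p = 0.18) for Fgb and 0.32 (SE 0.20, adjusted p = 0.257) for Fgg, and none was called. In NASH+Exercise against the same Control mice the log2FC was 0.74 (SE 0.22, adjusted p = 0.0276), 0.63 (SE 0.19, adjusted p = 0.0346) and 0.68 (SE 0.21, adjusted p = 0.0328), and all 3 rose. Without NASH+Exercise replicate 18 the 3 calls were lost, at 0.48, 0.42 and 0.43 with adjusted p from 0.115 to 0.148. They were also lost without Control replicate 3, and over the 16 alternatives the call was lost in 3 for Fga, 8 for Fgb and 6 for Fgg. In the direct comparison of NASH+Exercise with NASH the chains had 0.38, 0.28 and 0.37, with adjusted p from 0.423 to 0.519, so that a fibrinogen difference between the trained and the sedentary mice was not shown. With scaling by library size alone, and on the TPM scale, the chains rose in NASH as well, by 0.65 to 0.79 on the log2 scale.

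The 3 chains kept close proportions to each other in every library. The ratio of Fgg to Fgb in TPM was 0.808 to 0.844 in the Control mice, 0.776 to 0.819 in the NASH mice and 0.806 to 0.884 in the NASH+Exercise mice, and the ratio of Fga to Fgb was 0.730 to 0.921, 0.762 to 0.888 and 0.796 to 0.920. The groups overlapped in both ratios. The genes lie side by side on chromosome 3, with gaps of 11.1 kb between Fgg and Fga and 8.62 kb between Fga and Fgb.

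The windows before the 3 fibrinogen start sites are shown for the letters they share, marked as above. Fgg (chr3:83007474-83007723) and Fga (chr3:83025903-83026152) lie on the plus strand and Fgb (chr3:83049864-83050113) on the minus strand.
Fgg: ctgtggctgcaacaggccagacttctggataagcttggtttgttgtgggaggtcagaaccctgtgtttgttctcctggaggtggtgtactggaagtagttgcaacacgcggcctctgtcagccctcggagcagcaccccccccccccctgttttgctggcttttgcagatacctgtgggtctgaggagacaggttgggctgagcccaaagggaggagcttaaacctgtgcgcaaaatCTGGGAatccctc
Fga: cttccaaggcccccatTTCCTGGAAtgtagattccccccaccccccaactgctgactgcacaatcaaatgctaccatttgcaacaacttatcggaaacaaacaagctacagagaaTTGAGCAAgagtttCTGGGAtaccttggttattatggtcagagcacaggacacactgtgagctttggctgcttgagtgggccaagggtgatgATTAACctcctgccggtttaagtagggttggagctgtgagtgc
Fgb: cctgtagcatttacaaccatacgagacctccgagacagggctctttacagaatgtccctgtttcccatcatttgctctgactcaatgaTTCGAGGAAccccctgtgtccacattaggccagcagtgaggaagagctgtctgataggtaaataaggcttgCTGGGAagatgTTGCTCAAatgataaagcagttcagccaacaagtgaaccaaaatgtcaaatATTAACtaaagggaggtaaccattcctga
CTGGGA was present in all 3 windows, from -13 to -8 in Fgg, from -121 to -116 in Fga and from -91 to -86 in Fgb. The Fga and Fgb windows also held the HNF1 letters, from -43 to -38 and from -29 to -24, the C/EBP letters, from -135 to -128 and from -80 to -73, and the STAT letters, from -234 to -226 and from -162 to -154. Of the 25 members with a window, 10 held CTGGGA, 8 the C/EBP letters, 4 the STAT letters, 4 the HNF1 letters and 2 TATAAA. No window was listed for the other 8 members.

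F13a1 (Entrez Gene 74145, chr13:36867178-37050244), the catalytic subunit of factor XIII and a product of macrophages and platelets, was the least abundant member. It had 2, 1 and 7 counts in the Control mice, 34, 52 and 34 in the NASH mice and 19, 20 and 15 in the NASH+Exercise mice, with no overlap between Control and either group on the Ath diet. The log2FC was 3.16 (SE 0.48, adjusted p = 0.000582) in NASH and 2.2 (SE 0.51, adjusted p = 0.0095) in NASH+Exercise, for a gene that entered the test only through the mice on the Ath diet. The F13a1 call in NASH+Exercise was lost by limma on log2(TPM + 1), with an adjusted p of 0.0538. Over the 16 alternatives its log2FC there ran from 0.336 to 3.25. The 3 trained mice lay below the 3 NASH mice, with a log2FC of -0.96 (SE 0.38, adjusted p = 0.271), which did not pass the test. F13b, the carrier subunit made by hepatocytes, had 142, 148 and 155 CPM in the Control mice, 134, 109 and 136 in the NASH mice and 155, 135 and 139 in the NASH+Exercise mice. The 3 NASH mice lay below the Control mice, and the log2FC of -0.23 (SE 0.12, adjusted p = 0.175) was not called and was 0.20 on the TPM scale.

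The anticoagulants are the plasma inhibitors of thrombin and factor Xa and the protein C system, which is switched on at the vessel wall by thrombomodulin (Thbd) and the protein C receptor. Of the 9 genes 4 rose in NASH, where 21.2% of all genes rose, and 3 in NASH+Exercise, where 15.6% did. Procr (Entrez Gene 19124, chr2:155751125-155755478) had 6, 9 and 20 counts in the Control mice, 165, 96 and 186 in the NASH mice and 118, 71 and 76 in the NASH+Exercise mice, or 0.322, 0.500 and 1.02 CPM in the Control mice, 6.86, 3.73 and 7.91 in the NASH mice and 5.15, 3.35 and 3.70 in the NASH+Exercise mice. Procr, like F13a1, entered the test only through the mice on the Ath diet. Its log2FC was 3.30 (SE 0.42, adjusted p = 0.000198) in NASH and 2.71 (SE 0.42, adjusted p = 0.00108) in NASH+Exercise. Thbd, its partner on endothelial cells, had 3.70, 2.84 and 3.42 CPM in the Control mice, 5.49, 3.84 and 3.87 in the NASH mice and 4.19, 3.16 and 8.19 in the NASH+Exercise mice and a log2FC of 0.40 (SE 0.33, adjusted p = 0.378) in NASH, which did not pass the test although the NASH mice lay above the Control mice. Proc, the zymogen that both receptors serve, had a log2FC of -0.37 (SE 0.17, adjusted p = 0.116) in NASH, where it was 0.075 on the TPM scale, and -0.12 (SE 0.17, adjusted p = 0.665) in NASH+Exercise.

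Pros1 (Entrez Gene 19128, chr16:62854307-62929346) encodes protein S, the cofactor of activated protein C. It had 44.4, 33.9 and 52.4 CPM in the Control mice, 75.6, 84.7 and 73.2 in the NASH mice and 71.5, 82.6 and 60.6 in the NASH+Exercise mice, with every mouse on the Ath diet above every Control mouse. The log2FC was 0.84 (SE 0.17, adjusted p = 0.00338) in NASH and 0.72 (SE 0.17, adjusted p = 0.0109) in NASH+Exercise. Tfpi (Entrez Gene 21788, chr2:84432855-84476775), the inhibitor of tissue factor and factor VIIa, had 2.68, 1.45 and 3.83 CPM in the Control mice, 5.11, 6.05 and 4.08 in the NASH mice and 5.02, 4.01 and 3.70 in the NASH+Exercise mice. It rose in NASH, with a log2FC of 0.93 (SE 0.31, adjusted p = 0.039), but this call was lost under 6 of 16 alternatives, 5 of them the omission of 1 mouse (Control replicate 3 or 4, NASH replicate 5 or 19, or NASH+Exercise replicate 18), with a log2FC of 0.63 to 1.42 over the alternatives.

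Serpina10 (Entrez Gene 217847, chr12:103616675-103631490) encodes the protein Z-dependent protease inhibitor, which acts on factor Xa together with protein Z, the product of Proz. Serpina10 had 119, 170.5 and 119 CPM in the Control mice, 246, 232 and 241 in the NASH mice and 277, 378 and 352 in the NASH+Exercise mice. The 3 groups did not overlap, in the order Control, NASH and NASH+Exercise. The log2FC was 0.81 (SE 0.17, adjusted p = 0.00426) in NASH, 1.30 (SE 0.17, adjusted p = 0.000392) in NASH+Exercise and 0.49 (SE 0.17, adjusted p = 0.233) between the last 2, where the test was not passed. Proz had 242, 331 and 234 CPM in the Control mice, 294, 240.1 and 262 in the NASH mice and 301, 339.9 and 334 in the NASH+Exercise mice and a log2FC of -0.019 (SE 0.16, adjusted p = 0.94) in NASH. Serpinc1 (Entrez Gene 11905, chr1:160978583-161002543), the gene of antithrombin, had 2338, 2942 and 1999.5 CPM in the Control mice, 1912, 1377 and 1725 in the NASH mice and 1698, 2036 and 2062 in the NASH+Exercise mice. The 3 NASH mice were below the 3 Control mice, and the log2FC of -0.54 (SE 0.19, adjusted p = 0.05004) missed the threshold by the narrowest margin of any member. DESeq2, size factors in edgeR and the fit without Control replicate 29 called Serpinc1 lower, and on the TPM scale the NASH and Control groups overlapped. Serpind1, heparin cofactor II, had -0.18 in NASH and 0.14 in NASH+Exercise, neither called.

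In the plasminogen system 4 of 6 genes rose in both groups on the Ath diet, where 21.2% of all genes rose in NASH and 15.6% in NASH+Exercise. Plat and Plau encode the tissue-type and urokinase-type activators of plasminogen, and Plaur encodes the urokinase receptor. Plat (Entrez Gene 18791, chr8:22757722-22782848) had 3, 7 and 7 counts in the Control mice, 54, 87 and 54 in the NASH mice and 36, 17 and 17 in the NASH+Exercise mice. Plau (Entrez Gene 18792, chr14:20836662-20843388) had 5, 16 and 16 counts in the Control mice, 106, 165 and 138 in the NASH mice and 111, 41 and 61 in the NASH+Exercise mice. Plaur (Entrez Gene 18793, chr7:24460937-24475970) had 8, 4 and 16 counts in the Control mice, 75, 124 and 89 in the NASH mice and 58, 36 and 46 in the NASH+Exercise mice. In all 3 genes no mouse on the Ath diet was as low as any Control mouse. All 3, like F13a1, entered the test only through the mice on the Ath diet. The log2FC in NASH was 3.10 (SE 0.42, adjusted p = 0.000267) for Plat, 3.07 (SE 0.44, adjusted p = 0.000397) for Plau and 2.97 (SE 0.39, adjusted p = 0.00022) for Plaur. In NASH+Exercise it was 1.81 (SE 0.44, adjusted p = 0.0126), 2.30 (SE 0.44, adjusted p = 0.00349) and 2.11 (SE 0.40, adjusted p = 0.003). The Plat call in NASH+Exercise was lost without Control replicate 3, without NASH+Exercise replicate 8 and by limma on log2(TPM + 1), with a largest adjusted p of 0.074. NASH+Exercise replicate 8 had 36, 111 and 58 counts of the 3 genes, the highest of its group in each.

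Of the other 3 genes of this system, 1 rose. Cpb2 (Entrez Gene 56373, chr14:75242287-75283555) encodes the carboxypeptidase TAFI, which protects fibrin from plasmin. It had 276, 285 and 239 CPM in the Control mice, 533, 463 and 485 in the NASH mice and 551, 710.4 and 671 in the NASH+Exercise mice, with the 3 groups apart in CPM and in the order Control, NASH and NASH+Exercise. In TPM the NASH mice, at 626 to 708, and the NASH+Exercise mice, at 666 to 774, overlapped. The log2FC was 0.89 (SE 0.15, adjusted p = 0.000909) in NASH, 1.27 (SE 0.15, adjusted p = 0.000168) in NASH+Exercise and 0.38 (SE 0.14, adjusted p = 0.256) between them, and both calls against Control held in each of 16 alternatives. Plg, plasminogen itself, had 2163, 2979 and 2061 CPM in the Control mice, 2451, 1887 and 2152 in the NASH mice and 2388, 2800.5 and 2683 in the NASH+Exercise mice and a log2FC of -0.15 (SE 0.18, adjusted p = 0.567) in NASH. Serpinf2, the plasmin inhibitor alpha 2-antiplasmin, had -0.026 in NASH and 0.27 in NASH+Exercise.

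Training was compared with no training in mice on the Ath diet, the contrast between NASH+Exercise and NASH. By edgeR, 0 of 33 genes were called, 6 had an unadjusted p under 0.05, and 15.3% of all genes did. DESeq2 also called 0 of 33, against 2.39% of all genes. Plat had the smallest adjusted p, with a log2FC of -1.30 (SE 0.35, adjusted p = 0.151), and limma on log2(TPM + 1) called it lower with an adjusted p of 0.0478, where 2% of all genes were called lower. Plaur, F13a1 and F3 were the other lower genes among the 6, at -0.85 (SE 0.33, adjusted p = 0.259), -0.96 (SE 0.38, adjusted p = 0.271) and -0.73 (SE 0.31, adjusted p = 0.291). Serpina10 and Cpb2 were the higher ones, at 0.49 and 0.38. Plau, at -0.77 (SE 0.37, adjusted p = 0.352), was not among them. The trained and sedentary groups did not overlap in CPM for F13a1, Plat and Plaur, which were lower, as were 14.9% of all genes, and for F7, Proz, Serpind1, Serpina10 and Cpb2, which were higher, as were 9.16% of all genes. Among the 10 genes of other cells, 9 had a negative log2FC, with a median of -0.66, and among the 23 hepatocyte-made genes 21 had a positive one, with a median of 0.28. Of all 13619 genes, 7479 were lower and 6140 higher, with a median of -0.033. The sign of the hepatocyte-made genes depended on the scaling: 16 of 23 were positive with library size alone and 7 of 23 on the TPM scale. On the TPM scale Serpina10 was the only member with all 3 trained mice above the NASH mice, where 1.26% of all genes were, and 6 were lower without overlap, where 37.6% of all genes were. The comparisons with Control and with NASH share mice, so their values are given side by side only.

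Markers of other liver cells are given beside the genes of other cells, and none was called between NASH+Exercise and NASH. All 8 macrophage markers rose in NASH, with summed TPM of 70.0 to 142 in the Control mice, 1074 to 1431 in the NASH mice and 717 to 926 in the NASH+Exercise mice. Of 8 endothelial markers 4 rose in NASH, with sums of 67.9 to 124, 122 to 176 and 97.9 to 132 TPM, and 4 of 7 stellate and fibroblast markers rose, with sums of 12.0 to 22.8, 75.4 to 107 and 26.7 to 51.7 TPM. Of 7 platelet and megakaryocyte markers 4 could be tested and 2 rose, with sums of 1.93 to 3.95, 11 to 17.9 and 4.89 to 10.7 TPM. Among the smaller lists, 4 of 5 neutrophil, 3 of 5 cholangiocyte, 4 of 4 tested T and NK cell and 0 of 3 B cell markers rose in NASH. Of all genes tested, 21.2% rose in NASH. Several markers that rose, among them S100a8, Retnlg, Cd3e, Trem2, Pf4 and Ppbp, had means of 0.157 to 0.423 CPM in the Control mice. Like F13a1, these entered the test only through the mice on the Ath diet. No marker was at 0 in all mice of a group. The part of these cells in the rise of Procr, F13a1, Plat, Plau, Plaur and Tfpi was not tested. The ratio of F13a1 to Adgre1, the macrophage marker F4/80, was 0.0124 to 0.0452 in the Control mice, 0.0303 to 0.0650 in the NASH mice and 0.0225 to 0.0388 in the NASH+Exercise mice, with overlap between all groups. The ratio of Plaur to Adgre1 overlapped as well, at 0.118 to 0.333, 0.175 to 0.404 and 0.180 to 0.182. The ratio of Procr to the endothelial marker Pecam1 was 0.083 to 0.179 in the Control mice, 0.533 to 1.03 in the NASH mice and 0.519 to 0.584 in the NASH+Exercise mice, with Control apart from the other groups. Each ratio uses a single marker of a cell type. In the Control mice the ratios rest on 1 to 7 counts of F13a1, 4 to 16 of Plaur and 6 to 20 of Procr.

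Ratios of paired genes within a library do not depend on how libraries are scaled. The pairs were chosen after their values were seen, so the ratios are given as a description, with no test. The ratio of Serpina10 to Proz was 0.744, 0.776 and 0.764 in the Control mice, 1.26, 1.45 and 1.38 in the NASH mice and 1.38, 1.68 and 1.59 in the NASH+Exercise mice. The ratio of Cpb2 to Plg was 0.241, 0.181 and 0.219 in the Control mice, 0.410, 0.463 and 0.426 in the NASH mice and 0.435, 0.479 and 0.472 in the NASH+Exercise mice. The ratio of F11 to Klkb1 was 0.242 ± 0.038 (SD, n = 3) in the Control mice, 0.489 ± 0.175 in the NASH mice and 0.527 ± 0.042 in the NASH+Exercise mice. In these 3 pairs, the mice on the Ath diet were all above the Control mice, and NASH and NASH+Exercise overlapped. The ratio of Pros1 to Proc was 0.023 to 0.049 in the Control mice, 0.074 to 0.109 in the NASH mice and 0.049 to 0.075 in the NASH+Exercise mice, where replicate 22 fell within the Control range. The ratio of F7 to its neighbour F10 (a gap of 1.5 kb on chromosome 8) was 0.206 to 0.234 in the Control mice, 0.275 to 0.281 in the NASH mice and 0.264 to 0.289 in the NASH+Exercise mice.

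**Figure D3:**
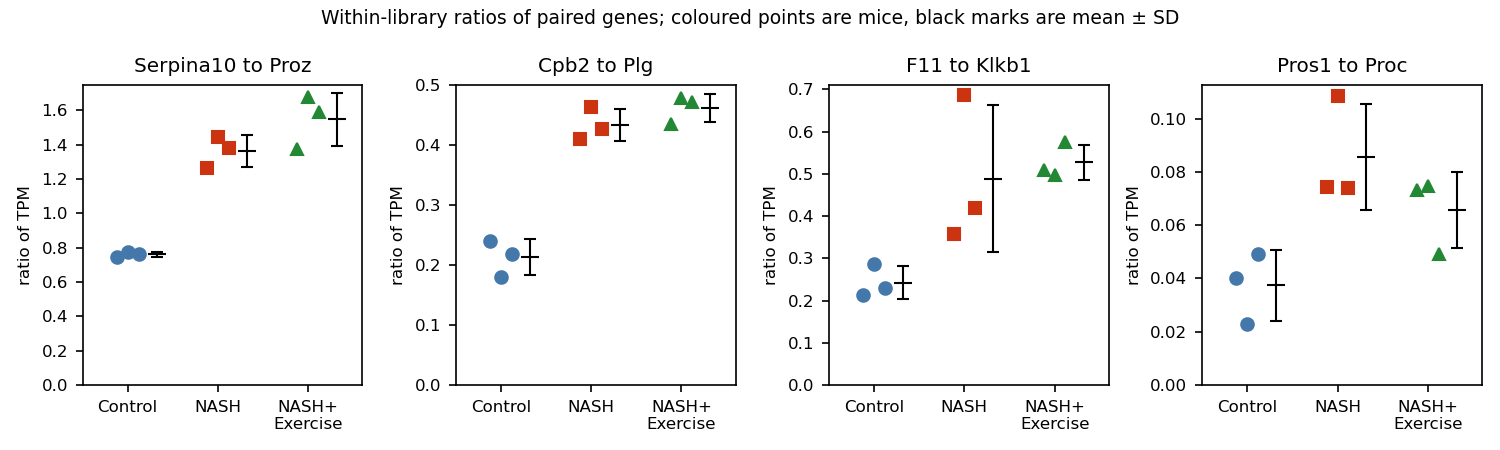
Ratios of TPM within each library for Serpina10 to Proz, Cpb2 to Plg, F11 to Klkb1 and Pros1 to Proc, with 1 coloured point per mouse in replicate order and black marks for the mean ± SD of 3 mice. The NASH and NASH+Exercise points lie above all Control points in the first 3 panels, and 1 NASH+Exercise point lies within the Control range for Pros1 to Proc.

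How the libraries were scaled changed the picture of the hepatocyte-made genes more than that of the others. Library size alone, in place of TMM, moved the median log2FC of all genes to 0.36 in NASH against Control, to 0.15 in NASH+Exercise against Control and to -0.23 in NASH+Exercise against NASH. With it, 16 of 33 genes rose in NASH and 0 fell, where 33% of all genes rose and 4.65% fell. By limma on log2(TPM + 1), 19 rose and 0 fell, where 37% of all genes rose and 3.85% fell. Of the 23 hepatocyte-made genes, 4 rose with TMM, 10 with library size alone and 13 on the TPM scale. The 10 genes that rose with TMM rose under both. F7, Kng2, Proz, Fga, Fgb and Fgg were added by library size alone. The same genes were added by limma on log2(TPM + 1), and Serpind1, Plg and Serpinf2 as well. In TPM, 20 of 33 genes were higher without overlap in NASH than in Control and 0 were lower, where 50.2% of all genes were higher and 5.59% lower.

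**Figure D4:**
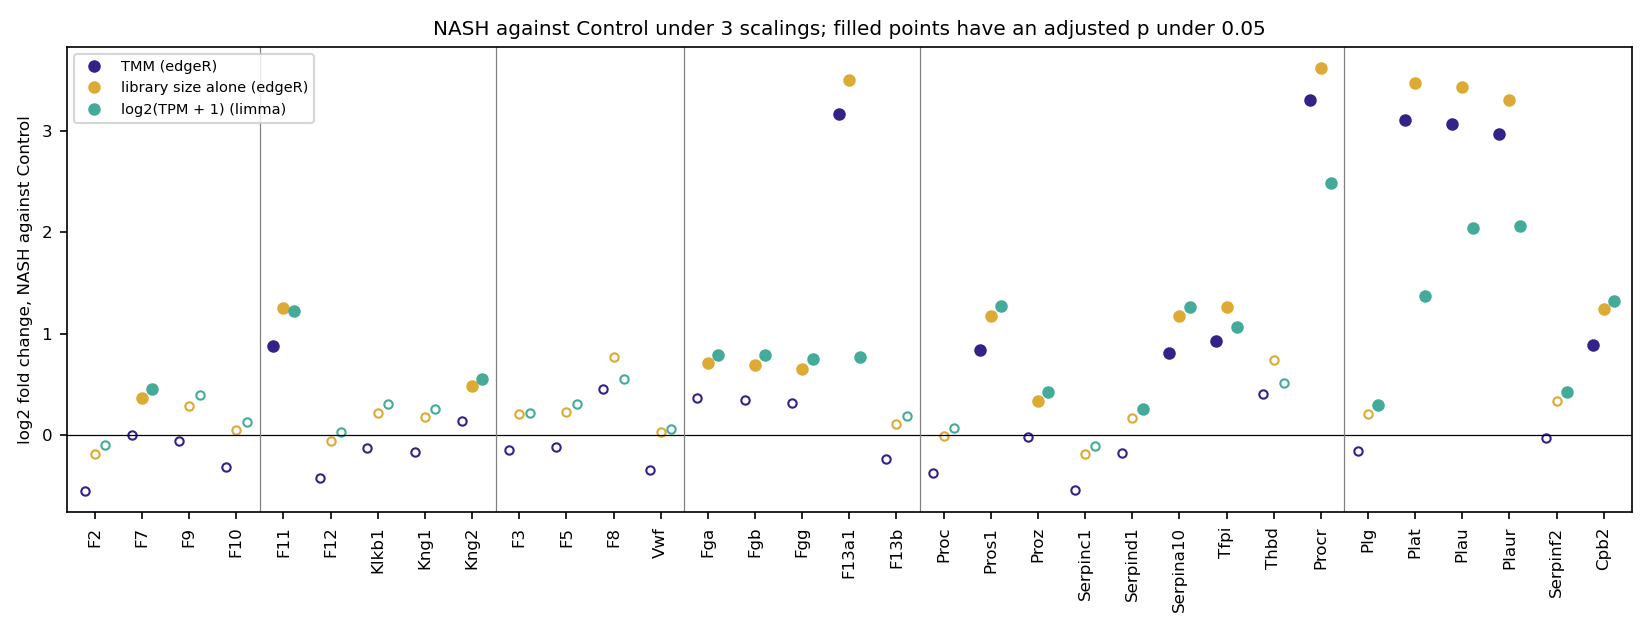
Log2 fold change of each gene in NASH against Control with 3 scalings, namely TMM in edgeR, library size alone in edgeR, and limma on log2(TPM + 1), in which filled points have an adjusted p under 0.05. Points for library size alone and TPM lie above the TMM point of the same hepatocyte-made gene, and the 10 genes filled for TMM are filled in all 3.

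Other genes of the pathway were read from a list of 39 regulators, receptors and processing enzymes, of which 36 could be tested. In NASH 10 rose and 9 fell, where 21.2% of all genes rose and 14.4% fell. In NASH+Exercise 10 rose against Control and 0 fell, where 15.6% of all genes rose and 9.58% fell. Between NASH+Exercise and NASH 0 were called by edgeR and 10 had an unadjusted p under 0.05, where 15.3% of all genes did. DESeq2 called 5 in this comparison, where 2.39% of all genes were called. They were Serpina1e, Serpine2 and Lman1, which were higher at 2.79, 1.80 and 0.51, and Fgl2 and Anxa2, which were lower at -1.16 and -0.81, with DESeq2 adjusted p from 0.000637 to 0.0322, and Lman1 was named after its values were seen. The largest rises in NASH were in Fgl2, a membrane-bound prothrombinase of macrophages and endothelial cells, with a log2FC of 3.42 (SE 0.29, adjusted p = 1.7e-05), in F2rl1, a protease-activated receptor, with 2.99 (SE 0.58, adjusted p = 0.00251), and in Anxa2, a cell-surface receptor of plasminogen and Plat, with 2.95 (SE 0.23, adjusted p = 1.04e-05). F2rl1 had a mean of 0.201 CPM in the Control mice and entered the test only through the mice on the Ath diet. In NASH+Exercise the largest rises were in Thbs1, Fgl2 and Anxa2, at 2.56, 2.25 and 2.13. The largest falls in NASH were in Serpina1e at -2.69 (SE 0.60, adjusted p = 0.00705), Serpine2, an inhibitor of thrombin and of plasminogen activators, at -1.92 (SE 0.42, adjusted p = 0.00676), and Serpina1d at -1.22. In NASH+Exercise against the same Control mice, Serpina1e had 0.085 (SE 0.56, adjusted p = 0.935) and Serpine2 -0.13 (SE 0.40, adjusted p = 0.858). Against NASH they had 2.77 (SE 0.60, adjusted p = 0.122) and 1.79 (SE 0.42, adjusted p = 0.131) in edgeR, with no overlap between these groups in CPM or TPM. Serpina1d and Serpina1e are near-identical copies of the alpha 1-antitrypsin gene, so their separate values are uncertain.

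Lists of other liver genes were set beside the members. Of 14 acute phase genes, plasma proteins that rise in inflammation and none of them a member, 11 rose in NASH and 13 in NASH+Exercise against Control, with median log2FC of 1.38 and 1.58. Of 13 other secreted hepatocyte proteins, 0 rose and 3 fell in NASH, with a median of -0.28, and in NASH+Exercise 1 rose and 2 fell, with a median of -0.048. The 23 hepatocyte-made members, at medians of -0.053 and 0.14, lay between these lists in both groups. Their 4 genes that rose in both groups, F11, Pros1, Serpina10 and Cpb2, had log2FC of 0.81 to 0.89 in NASH, below the acute phase median. The 16 hepatocyte-made members called in neither group had medians of -0.16 in NASH and -0.0079 in NASH+Exercise. These members were grouped by the outcome of the same tests, so their small medians are in large part set by that choice. Of 9 liver transcription factors, 2 rose in NASH and 3 fell.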

How the data were processed

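Liver RNA of 9 mice was sequenced as 1 mRNA library each. The authors deposited expected counts, TPM and FPKM for each Entrez Gene identifier. The submitters' processing notes name HISAT2 2.1.0, Bowtie2 2.2.5, RSEM 1.2.8 and GRCm38.p6, with no role given for each. Expected counts share out reads that match several genes, so close copies are uncertain, and they were rounded to whole numbers here. The FPKM values the authors deposited were not used. Of the 17846 identifiers, 17728 were given a RefSeq symbol.

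Counts were tested with edgeR 4.0.16 in R 4.3.3 (TMM scaling, genes kept by filterByExpr with a minimum count of 10 and a total of 15, robust quasi-likelihood fit of all 9 mice by group), and p-values were adjusted by Benjamini and Hochberg over 13619 genes. DESeq2 1.42.0, limma 3.58.1 on log2(TPM + 1) or log2(TPM + 0.1), other scalings, no filter, fits of 2 groups and omission of each mouse were the alternatives. The test was tried on simulated data. TPM served for the order of levels and for ratios within a library. Promoter windows came from RefSeq on GRCm38.p6. The text gives every member, and of the wider list the 3 called genes with the largest change in each direction. The members and lists were chosen with earlier results of these data known. Counting error and biological spread both enter the SE, so the depth of 20085976 to 22495408 counts a library does not set its precision alone.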

Additional observations from a re-analysis of the deposited data

How the results depend on the processing

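Against Control, 9 of the 10 calls in NASH and 7 of the 12 in NASH+Exercise held in all of 16 alternatives. In NASH against Control the 10 members called became 16 with library size alone, 19 by limma with either pseudocount (1 or 0.1 TPM) and 5 with an absolute log2FC above 1. With 1 mouse left out, 9 to 13 members were called in NASH and 8 to 12 in NASH+Exercise against Control. Between NASH+Exercise and NASH, limma on log2(TPM + 1) called 1 member in place of 0, and DESeq2 called 5 genes of the wider list in place of 0. The values that changed sign were those of members that the main edgeR fit did not call in that comparison. Some were called after the change. In NASH against Control, Proz rose with library size alone, and Proz, Serpind1, Plg and Serpinf2 rose by limma with either pseudocount. For NASH against Control, the log2FC that changed sign were, with DESeq2 F7 -0.036, and with RLE size factors in edgeR F7 -0.036, and with library size alone F9 0.29, F10 0.052, Klkb1 0.22, Kng1 0.18, F3 0.21, F5 0.23, Vwf 0.033, F13b 0.11, Proz 0.34, Serpind1 0.18, Plg 0.21 and Serpinf2 0.34, and with no filter on low counts F7 -0.040, and with limma on TPM F10 0.13, F12 0.029, F13b 0.20, F3 0.22 or 0.27, F5 0.31, F9 0.40, Klkb1 0.31, Kng1 0.26, Plg 0.30, Proc 0.075, Proz 0.43, Serpind1 0.26, Serpinf2 0.43 and Vwf 0.062 or 0.091. For NASH+Exercise against NASH, the log2FC that changed sign were, with library size alone F11 -0.067, Klkb1 -0.16, Kng1 -0.046, F5 -0.15 and F13b -0.015, and with limma on TPM F11 -0.10, F12 -0.036, F13b -0.12, F5 -0.25, F7 -0.00042, F9 -0.089 or -0.090, Fgb -0.046, Klkb1 -0.26, Kng1 -0.14, Plg -0.018, Proc -0.052, Proz -0.0043, Serpinc1 -0.081, Serpinf2 -0.0049 and Thbd -0.094 or -0.15, and with only the 2 groups compared Kng2 0.0036. For NASH+Exercise against Control, the log2FC that changed sign were, with DESeq2 F10 -0.019, and with RLE size factors in edgeR F10 -0.019, and with library size alone F12 0.00072, Klkb1 0.061, Kng1 0.14, F5 0.079, F13b 0.10 and Proc 0.035, and with no filter on low counts F10 -0.012, and with limma on TPM F13b 0.077, F5 0.062 or 0.063, Klkb1 0.051, Kng1 0.13 and Proc 0.023, and with only the 2 groups compared Kng1 0.015. With 1 mouse left out, the sign changed within these ranges: F7 -0.18 to 0.19, F9 -0.23 to 0.10, Proz -0.15 to 0.14, Plg -0.29 to 0.019 and Serpinf2 -0.18 to 0.20 in NASH against Control, F11 -0.017 to 0.44, Kng2 -0.12 to 0.067, Vwf -0.33 to 0.13 and Thbd -0.25 to 0.49 in NASH+Exercise against NASH, F10 -0.11 to 0.21, F12 -0.27 to 0.061, Kng1 -0.093 to 0.12, F8 -0.20 to 0.71 and Proc -0.23 to 0.050 in NASH+Exercise against Control. No paired analysis was possible because the labels give no replicate number to more than 1 group. With 3 mice a group, and at most 20 counts of F13a1, Plat, Plau, Plaur and Procr in each Control mouse, the size of their rises is the least certain. The p-values set a difference between groups against the estimated spread between these mice and do not measure that spread.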
